A study of Rattus norvegicus with 12 samples.

Results

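The let-7 family guide strands are the microRNAs of rat gastric mucosa that share the let-7 seed. The 9 members were chosen by name, as the -5p strands of let-7a, b, c, d, e, f, g and i together with miR-98-5p, and all 9 were found among the 649 mature miRNAs counted in the series. Small RNA was sequenced from gastric mucosa of rats in 3 groups of 4 libraries each. In the XLHZ group, rats were exposed to the mutagen N-methyl-N'-nitro-N-nitrosoguanidine (MNNG) for 24 weeks and also received Xianglianhuazhuo formula, a herbal preparation, for 60 days. In the model group, rats had the 24 weeks of MNNG without the formula. In the normal group, rats had no treatment. The exposure, meant to give chronic atrophic gastritis, combined MNNG at 180 µg/ml in drinking water, 2% sodium salicylate by gavage, and cycles of 2 days of full feeding and 1 day of fasting. The libraries held 9095260 to 11556061 miRNA counts. Whether each library is a rat of its own is not stated in the labels, so a p-value here weighs a difference against the scatter of libraries, which may be technical. The labels name no processing batch.

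A miRNA guide strand is loaded into an Argonaute protein and pairs, mainly through its seed, with messenger RNAs that are then repressed. The partner strand of the same hairpin, the passenger, is mostly discarded. The let-7 family was first described in Caenorhabditis elegans as a timer of development, and in mammals it is abundant in differentiated adult tissues, where RAS, HMGA2 and MYC messages are known targets and LIN28 blocks the maturation of its precursors.

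The 9 mature sequences, from RefSeq with assembly GRCr8, are shown because the members differ at so few bases that reads of one can be counted as another. Capitals mark the seed, bases 2 to 8 from the 5′ end.
rno-let-7a-5p: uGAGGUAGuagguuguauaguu
rno-let-7b-5p: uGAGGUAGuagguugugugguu
rno-let-7c-5p: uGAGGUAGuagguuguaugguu
rno-let-7d-5p: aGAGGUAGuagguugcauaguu
rno-let-7e-5p: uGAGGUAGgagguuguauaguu
rno-let-7f-5p: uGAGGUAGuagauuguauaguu
rno-let-7g-5p: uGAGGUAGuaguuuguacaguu
rno-let-7i-5p: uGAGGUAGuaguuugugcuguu
rno-miR-98-5p: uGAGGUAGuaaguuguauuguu

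All 9 strands are 22 bases long and carry the same seed, and these 9 are the strands with that seed among the 693 mature names in the RefSeq table. Counted from 1 at the 5′ end and against let-7a, let-7c differs by A19G, let-7e by U9G and let-7f by G12A. Let-7b differs by A17G and A19G, let-7d by U1A and U16C, let-7g by G12U and U18C, and miR-98 by G11A and A19U. Let-7i differs by 4 bases, namely G12U, A17G, U18C and A19U. The sources used here do not say how reads were assigned between near-identical members, so the level of a single member is uncertain to that extent.

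The strands come from 12 hairpins on 6 chromosomes, and let-7a, let-7c and let-7f each come from more than 1 hairpin, so their counts are sums over loci. On chromosome 17, let-7a starts 363 bases before let-7f, which starts 1765 bases before let-7d. On chromosome 7, let-7c starts 408 bases before let-7b, and on chromosome X let-7f starts 611 bases before miR-98. Let-7e lies on chromosome 1, let-7g on chromosome 8 and let-7i on chromosome 7, away from the other members.

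Smooth muscle microRNAs set several libraries apart. The 4 arms of the miR-143/145 pair, 4 of 4 found, made up 11.1% to 26.4% of counts in XLHZ libraries, 16.1% to 33.7% in model libraries and 14.2% to 21.9% in normal libraries. Model libraries 2 and 3 had the highest shares, 33.7% and 29.1%, and XLHZ library 1 the lowest. The epithelial list of miR-200 family strands, 5 of 5 found, held 6.92% to 9.62% in XLHZ, 4.5% to 9.43% in model and 6.78% to 8.42% in normal libraries. Fewer cells of a type and less RNA per cell cannot be told apart in such bulk samples.

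The family held 20.2% of all miRNA counts on average over the 12 libraries. Its summed share was 22.1%, 18.3%, 20.3% and 21.3% in XLHZ libraries 1 to 4, against 19.9%, 17.2%, 16.4% and 20.9% in model libraries 1 to 4 and 21.0%, 20.1%, 21.3% and 23.1% in normal libraries 1 to 4. The means were 20.5% ± 1.63 in XLHZ, 18.6% ± 2.17 in model and 21.4% ± 1.25 in normal mucosa (SD, n = 4 each). The XLHZ and model libraries overlapped, as did each of these groups with normal. The lowest shares belonged to model libraries 2 and 3 and XLHZ library 2, the libraries with the most smooth muscle miRNA in their groups. With the smooth muscle arms taken out of the denominator, the family held 25.02% ± 0.277 in XLHZ, 24.9% ± 1.24 in model and 26.2% ± 0.784 in normal libraries (SD, n = 4 each).

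**Figure D1:**
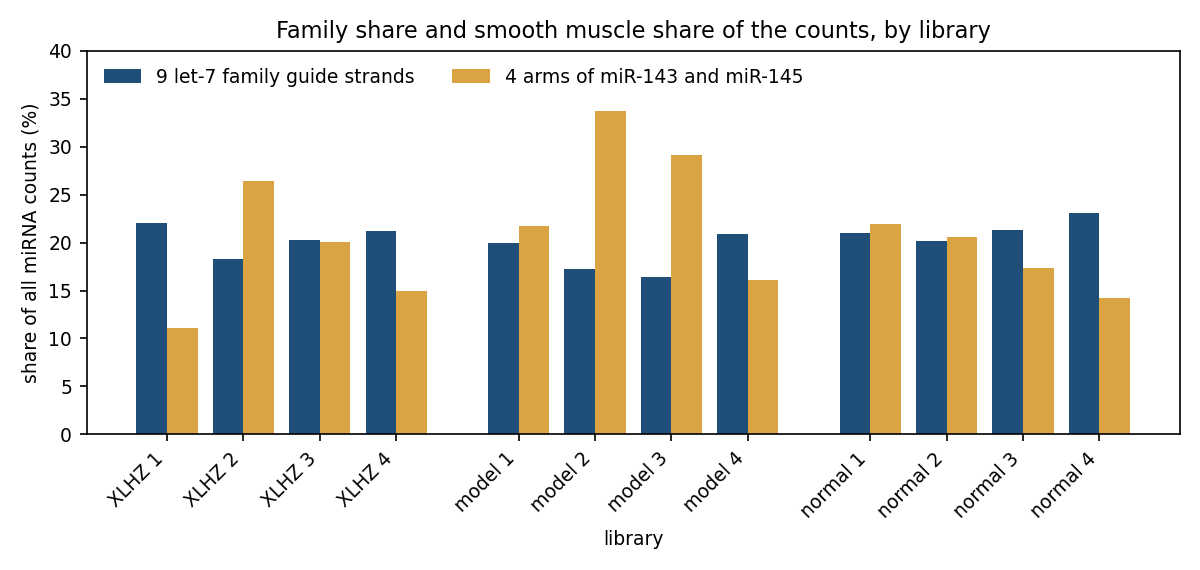
Share of all miRNA counts, in percent, held by the 9 let-7 family guide strands (blue) and by the smooth muscle arms miR-143 and miR-145 (yellow), with 1 pair of bars per library. The family bars lie between 16.4% and 23.1%, while the smooth muscle bars run from 11.1% to 33.7% and are tallest in model libraries 2 and 3.

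Levels are given as CPM, counts scaled to a common library size, with TMM factors chosen so that most miRNAs stay level. The strands have 1 length, so their levels need no correction for length. How evenly library preparation captured strands of different sequence was not tested. The orders and ratios of strands given here are therefore those of counts. Let-7f was the most abundant member, with a mean of 55674 CPM over 12 libraries, and ranked 3 among all miRNAs. Let-7a followed at 48828 CPM and let-7c at 44437 CPM, at ranks 4 and 5. These 3 strands, the ones with more than 1 hairpin, made up 73.3% to 75.6% of family counts in the 12 libraries.

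The other 6 members were well below them. Let-7b had a mean of 14531 CPM, let-7g 12735 CPM and let-7i 11903 CPM. Let-7d had 7446 CPM and let-7e 4368 CPM. MiR-98, the member named outside the let-7 series, was the lowest at 829 CPM and ranked 82. Of neighbours in this order, let-7f was above let-7a in 12 of 12 libraries, by 1.09 to 1.26 times in counts. Let-7a was above let-7c in 11 of 12, the exception being model library 3, so this pair did not differ beyond its spread. Let-7b exceeded let-7g in 10 of 12 libraries, and let-7g exceeded let-7i in 10 of 12, so neither pair differed beyond its spread. The remaining neighbours kept their order in 12 of 12 libraries. In the model group alone, let-7i averaged 12255 CPM and let-7g 12195 CPM, the one change of place among the group orders.

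**Figure D2:**
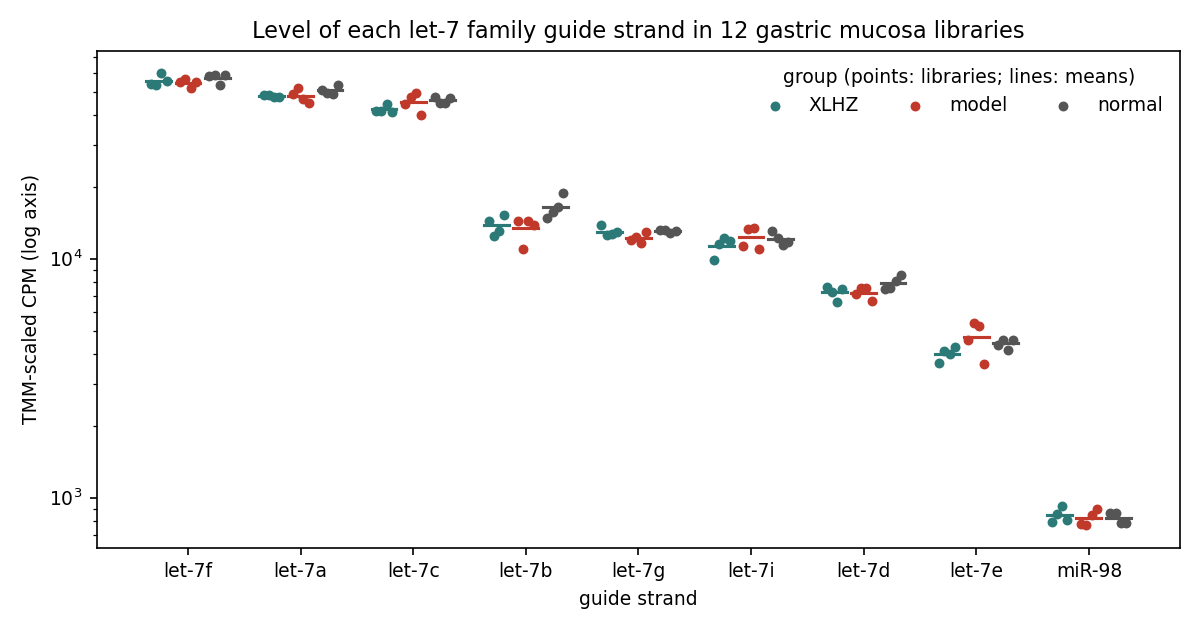
TMM-scaled CPM on a log axis for each guide strand, in order of its mean over 12 libraries; points are libraries and lines group means, for XLHZ, model and normal. Let-7f, let-7a and let-7c form an upper tier of 39974 to 59576 CPM, and miR-98 lies at 766 to 923 CPM.

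Within a group, most members were steady from library to library. Across the 148 miRNAs with a mean of at least 100 CPM, the median within-group SD of log2 CPM was 0.26, and the median over the 9 members was 0.089. Let-7g, let-7a and let-7f had the smallest SDs of all 148, at 0.053, 0.061 and 0.062. Let-7e (0.16), let-7b (0.16) and let-7i (0.13) were the least steady members. Abundant strands have little counting error, and how far abundance accounts for the ranks was not tested. These SDs are of TMM-scaled levels, the members themselves entered the TMM factors, and the spread under other scalings was not examined. Over the 12 libraries the family sum was 20.2% ± 1.97 of library totals and 200751 ± 7780 CPM with TMM factors (SD, n = 12).

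In the comparison of the formula-treated with the untreated exposed rats, no member passed. With edgeR's quasi-likelihood test and Benjamini-Hochberg adjustment over all miRNAs, 0 of 9 members and 0.249% of the 402 miRNAs tested had an adjusted p under 0.05. No member reached an unadjusted p under 0.05, against 4.23% of all miRNAs. Fold changes (log2, XLHZ over model) were below 0 for 5 of 9 members and for 49.0% of all miRNAs, with medians of -0.017 and 0.0057. The number of members below 0 was 7 with RLE factors, 4 with upper quartiles and 1 with library totals. Relative to the median of all miRNAs, the median member stood at -0.022 with TMM, -0.026 with RLE factors, -0.014 with upper quartiles and -0.0023 with library totals. The 95% intervals of the 9 differences reached no lower than -0.58 and no higher than 0.32.

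Let-7e, a single-hairpin strand, had the largest difference. Its level was 3661, 4094, 3987 and 4249 CPM in XLHZ libraries 1 to 4, against 4547, 5352, 5236 and 3634 CPM in model libraries 1 to 4. Model libraries 2 and 3 were highest and model library 4 was the lowest of the 8, so the groups overlapped. The log2 fold change of let-7e was -0.25 (SE 0.15, edgeR adjusted p = 0.73). It ran from -0.35 to -0.17 with 1 library left out, and it was -0.082 when model libraries 2 and 3 were left out. As these were the highest model libraries, leaving them out lowers the model mean by selection, here and for let-7i and let-7c below. Model libraries 2 and 3 also had the largest smooth muscle shares. The part of these shares in the result was not tested, and leaving out the 2 libraries is no test of it. Let-7i had 9860, 11490, 12179 and 11809 CPM in XLHZ libraries, against 11334, 13319, 13427 and 10939 CPM in model libraries. Here too model libraries 2 and 3 were highest, and the log2 fold change was -0.13 (SE 0.12, edgeR adjusted p = 0.82). It was -0.023 without model libraries 2 and 3, -0.074 without XLHZ library 1 and -0.081 without model library 2. Over all omissions of 1 library it ran from -0.19 to -0.074.

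Let-7c, which has a copy beside let-7b on chromosome 7, had 41574, 41567, 44464 and 41071 CPM in XLHZ libraries, against 44186, 47653, 49109 and 39974 CPM in model libraries. Again the model group held both the highest libraries and the lowest. Its log2 fold change was -0.12 (SE 0.094, edgeR adjusted p = 0.80), and -0.047 without model libraries 2 and 3. Leaving out 1 library gave -0.17 to -0.089. The other 6 members had log2 fold changes between -0.020 (let-7a) and 0.069 (let-7g).

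In the comparison of exposed, untreated rats with normal rats, again 0 of 9 members passed, with 0.248% of the 403 miRNAs tested passing in edgeR. At an unadjusted p under 0.05 there was 1 member, let-7b, against 7.2% of all miRNAs. Fold changes (log2, model over normal) were below 0 for 7 of 9 members and 50.9% of all miRNAs, with medians of -0.073 and -0.0072. The number of members below 0 was 5 with RLE factors or upper quartiles and 9 with library totals. Relative to the median of all miRNAs, the median member stood at -0.066 with TMM, -0.070 with RLE factors, -0.064 with upper quartiles and -0.067 with library totals. The 95% intervals lay between -0.59 and 0.41.

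Let-7b, which shares the chromosome 7 locus with a copy of let-7c, had 14360, 11013, 14324 and 13794 CPM in model libraries, against 14842, 15628, 16420 and 18817 CPM in normal libraries. All 4 model libraries were below all 4 normal libraries, a pattern seen, in the lower direction, for 1.99% of the miRNAs tested. The nearest libraries were 14360 CPM in model and 14842 CPM in normal. The log2 fold change was -0.30 (SE 0.13, 95% interval -0.59 to -0.013, edgeR adjusted p = 0.61), so let-7b did not pass. It was -0.19 without model libraries 2 and 3, the first of which had the lowest let-7b level, and -0.20 without normal library 4, the highest. Over all omissions of 1 library it ran from -0.34 to -0.20. The 2 groups did not overlap under TMM or RLE scaling, and they overlapped under upper-quartile scaling and library totals. Squamous epithelial strands (miR-205 and miR-203a, 2 of 2 found) held 0.297% to 0.436% of counts in model libraries, against 0.494% to 0.972% in normal libraries, without overlap. No other marker list separated these groups. Taken singly, neither strand passed (edgeR adjusted p = 0.64 for miR-205 and 0.65 for miR-203a-3p). Such shares are of library totals, which include the smooth muscle arms. The gastric and endocrine list (miR-375, miR-148a and miR-7a, 3 of 3 found) held 0.907% to 2.53% in model libraries, against 2.44% to 3.4% in normal libraries. In XLHZ libraries the squamous list held 0.407% to 0.636% and the gastric and endocrine list 2.02% to 3.41%, both overlapping with normal. The part of these tissue shares in the let-7b result was not tested. Let-7c, whose mature strand is 1 base from let-7b, averaged 45231 ± 4067 CPM in model and 45910 ± 1351 CPM in normal libraries (SD, n = 4 each). Its log2 fold change was -0.026 (SE 0.094), and it was above 0 under RLE and upper-quartile scaling.

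Let-7d, the one member with another first base, averaged 7212 ± 441.4 CPM in model and 7902 ± 486 CPM in normal libraries (SD, n = 4 each), with a log2 fold change of -0.14 (SE 0.11). Let-7g averaged 12195 ± 542 CPM in model and 13046 ± 189 CPM in normal libraries, with a log2 fold change of -0.10 (SE 0.097). Let-7f, the leading strand, averaged 54404 ± 1871 CPM in model and 57066 ± 2413 CPM in normal libraries, with a log2 fold change of -0.073 (SE 0.081). The groups overlapped for each of these 3 strands, except that let-7d was lower in model without overlap under library totals. Their edgeR adjusted p ran from 0.72 to 0.82. Leaving out 1 library moved let-7d to between -0.16 and -0.071 (without model library 1 or normal library 4, and -0.087 without normal library 3), and let-7g to between -0.13 and -0.021 (without model library 3). Let-7g was also moved by over 1.5 times without model library 1 (-0.031), normal library 2 (-0.053) or normal library 3 (-0.067). Let-7f ran from -0.085 to 0.0066, its only value above 0 being that without model library 3. Let-7e was the member with the highest fold change, 0.083 on the log2 scale (SE 0.15, edgeR adjusted p = 0.89), and it was -0.084 without model libraries 2 and 3. It had a wide spread in model (4692 ± 790 CPM) beside that in normal libraries (4415 ± 194 CPM).

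In the comparison of formula-treated with normal rats, 0 of 9 members passed, against 1.5% of the 401 miRNAs tested in edgeR. An unadjusted p under 0.05 was given to 2 members, let-7b and let-7c, and to 8.73% of all miRNAs. Fold changes (log2, XLHZ over normal) were below 0 for 8 of 9 members and for 50.9% of all miRNAs. The number of members below 0 was 8 with RLE factors, 6 with upper quartiles and 7 with library totals. The member median was -0.13 and that of all miRNAs -0.0040. Relative to the median of all miRNAs, the median member stood at -0.12 with TMM or RLE factors and -0.13 with upper quartiles or library totals. The XLHZ libraries enter this comparison and the one with model, and the normal libraries enter this one and the one before it, so the comparisons are not independent.

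Let-7c had 41574, 41567, 44464 and 41071 CPM in XLHZ libraries, against 47300, 44827, 44679 and 46835 CPM in normal libraries. The groups did not overlap, but XLHZ library 3 (44464 CPM) nearly reached the lowest normal library (44679 CPM). The log2 fold change was -0.15 (SE 0.052, 95% interval -0.27 to -0.037, edgeR adjusted p = 0.45). Let-7a had 48434, 48578, 47381 and 47443 CPM in XLHZ libraries, against 50810, 49101, 49027 and 53179 CPM in normal libraries. The XLHZ libraries were also below all normal ones for this strand, with a log2 fold change of -0.11 (SE 0.054, edgeR adjusted p = 0.57). Lower values without overlap were found for these 2 members and for 2.24% of all miRNAs tested. For both strands the groups overlapped when counts were scaled by upper quartiles or library totals. With RLE factors let-7d and let-7e were also lower in XLHZ without overlap, and with upper quartiles let-7e was the one member so placed.

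Let-7b in XLHZ libraries stood at 14434, 12480, 13038 and 15223 CPM, against the normal values given above, and XLHZ library 4 was above normal library 1. Its log2 fold change was -0.28 (SE 0.10, 95% interval -0.51 to -0.053, edgeR adjusted p = 0.47). MiR-98 had 789, 851, 923 and 806 CPM in XLHZ libraries, against 866, 862, 783 and 785 CPM in normal libraries, and the groups overlapped (log2 fold change 0.00063, 95% interval -0.21 to 0.21). Over every setting tried, the smallest edgeR, DESeq2 or limma adjusted p of any member was 0.31 for XLHZ over model, 0.43 for model over normal and 0.28 for XLHZ over normal.

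**Figure D3:**
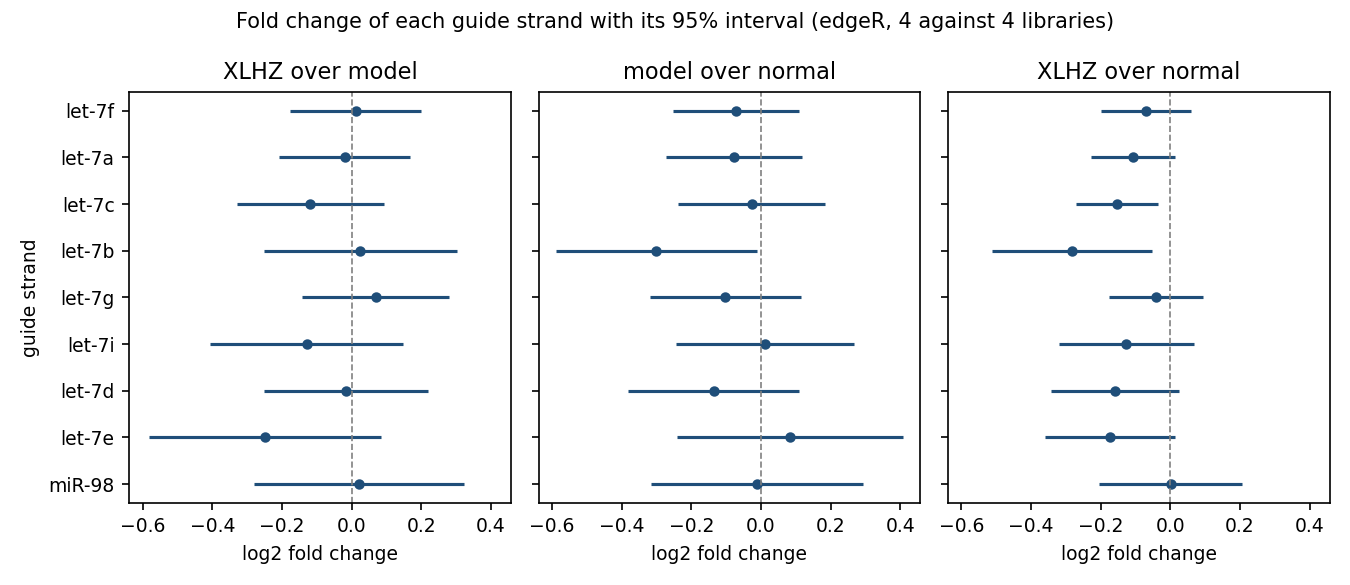
Log2 fold change of each guide strand with its 95% interval from edgeR, in 3 panels for XLHZ over model, model over normal and XLHZ over normal (4 against 4 libraries each). Intervals clear of 0 belong to let-7b in model over normal and to let-7b and let-7c in XLHZ over normal, and none of these passed after adjustment.

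The share of each member within the family needs no scaling between libraries. For all 9 members the groups overlapped in all 3 comparisons. Let-7f held 28.4% ± 0.888 of family counts in XLHZ, 27.5% ± 1.35 in model and 27.4% ± 0.705 in normal libraries (SD, n = 4 each). Let-7a held 24.5% ± 0.751, 24.2% ± 0.873 and 24.3% ± 0.345 in the same groups. Let-7c held 21.5% ± 0.495 in XLHZ, 22.8% ± 1.40 in model and 22.1% ± 0.429 in normal libraries.

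Single libraries stood out in their make-up. In model libraries 2 and 3, let-7c (23.1% and 24.5%), let-7i (6.47% and 6.70%) and let-7e (2.60% and 2.61%) held the highest within-family shares of the 12 libraries. In the same libraries let-7g held its lowest shares, 5.96% and 5.79%. XLHZ library 1, with the least smooth muscle miRNA, had the lowest shares of let-7e (1.89%) and let-7i (5.08%) and the highest share of let-7g (7.10%). XLHZ library 2, with the third highest smooth muscle share (26.4%), did not follow in let-7c, let-7e and let-7g. Its shares of let-7c (21.6%) and let-7e (2.13%) were below their 12-library means and that of let-7g (6.52%) was above its mean. Its share of let-7i (5.98%) was just above the mean of that strand (5.93%). The part of smooth muscle RNA in the make-up was not tested. Let-7b did not follow these strands. It held 5.35% in model library 2, its lowest, and 7.15% in model library 3, against 8.71% in normal library 4, its highest.

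**Figure D4:**
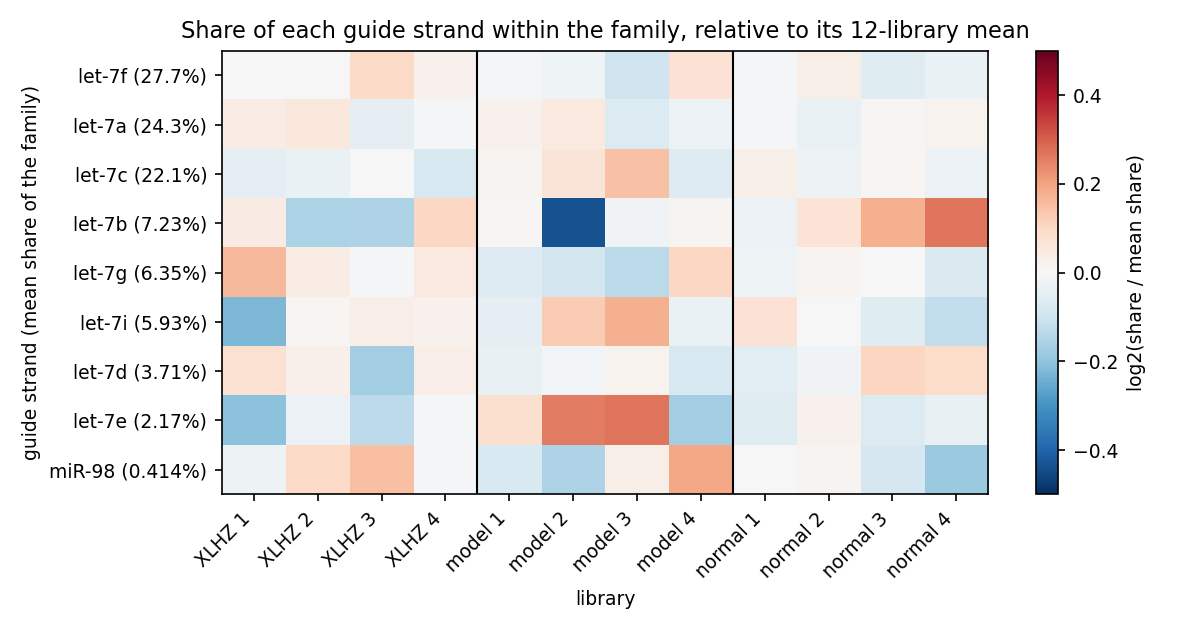
Log2 ratio of the share of each guide strand within the family to its mean share over 12 libraries (mean share in brackets), with libraries in columns grouped as XLHZ, model and normal. Model libraries 2 and 3 are red for let-7c, let-7i and let-7e, model library 2 is the darkest blue cell for let-7b (5.35% against a mean of 7.23%), and XLHZ library 1 is blue for let-7i and let-7e.

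Over the 36 pairs of members, the SD over 12 libraries of the log2 count ratio measured how closely 2 strands kept step. It was smallest for let-7a with let-7f (0.069), let-7f with let-7g (0.070), let-7a with let-7d (0.072) and let-7c with let-7i (0.079). Let-7a and let-7f have neighbouring hairpins on chromosome 17, with let-7d beyond let-7f, while let-7c and let-7i differ at 4 bases. Let-7f with let-7d, also neighbours on chromosome 17, had an SD of 0.12. Likeness of sequence did not order the pairs. Let-7b and let-7c differ at 1 base and have neighbouring hairpins on chromosome 7, yet their SD was 0.21. The largest SDs were those of let-7b with let-7e (0.28) and let-7b with let-7i (0.26). For pairs that differ at 1 base the median SD was 0.12 (4 pairs), and for pairs that differ at 4 bases it was 0.13 (9 pairs). Pairs share libraries and members, so these SDs are a description.

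Outside the family, the same measure against the summed family count was taken for 139 miRNAs with a mean of at least 100 CPM, whose median SD was 0.30. The 5 closest were miR-26a-5p (0.086), miR-24-3p (0.094), miR-29a-3p (0.096), miR-26b-5p (0.11) and miR-199a-5p (0.12), over 12 libraries. MiR-26a-5p had 26.0% to 31.7% of the family count in every library. MiR-143-3p, the smooth muscle strand, had an SD of 0.60.

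In mammals, copies of let-7a, let-7c and let-7e lie near hairpins of the miR-99, miR-100 and miR-125 families. Of the 5 such -5p strands, 0 passed in any comparison. Of all miRNAs, 0.249% passed for XLHZ over model, 0.248% for model over normal and 1.5% for XLHZ over normal. In the same order, an unadjusted edgeR p under 0.05 was given to 1, 0 and 2 strands. The shares of all miRNAs were 4.23%, 7.2% and 8.73%. Fold changes were below 0 for 5, 1 and 5 strands, and for 49.0%, 50.9% and 50.9% of all miRNAs. The closest pair was let-7e with miR-99b-5p (SD of the log2 ratio 0.12), and the loosest was let-7a with miR-100-5p (0.52). Counts of let-7a and let-7c also include hairpins elsewhere.

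The passenger strands were rare. The 12 passenger arms together held 0.182% of the guide and passenger counts, and 11 of them could be tested, let-7a-2-3p being too low. The hairpin of let-7i is shown because it gave the most passenger strand, with 1354 to 1974 counts of let-7i-3p per library (RefSeq, GRCr8, chr7:60527877-60527961, minus strand; capitals mark both arms).
let-7i hairpin: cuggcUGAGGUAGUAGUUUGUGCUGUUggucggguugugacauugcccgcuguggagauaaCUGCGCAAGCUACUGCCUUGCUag

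Let-7i had 65.6 to 104 guide counts per passenger count in the 12 libraries, the lowest ratio in the family. Let-7d was next at 106 to 210. Let-7f had the highest ratio, 5208 to 9302, with the arms of both its hairpins summed. The order of the ratios was not the order of the guide levels, since let-7g had 1529 to 2255 guide counts per passenger count and the more abundant let-7c 502 to 782.

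**Figure D5:**
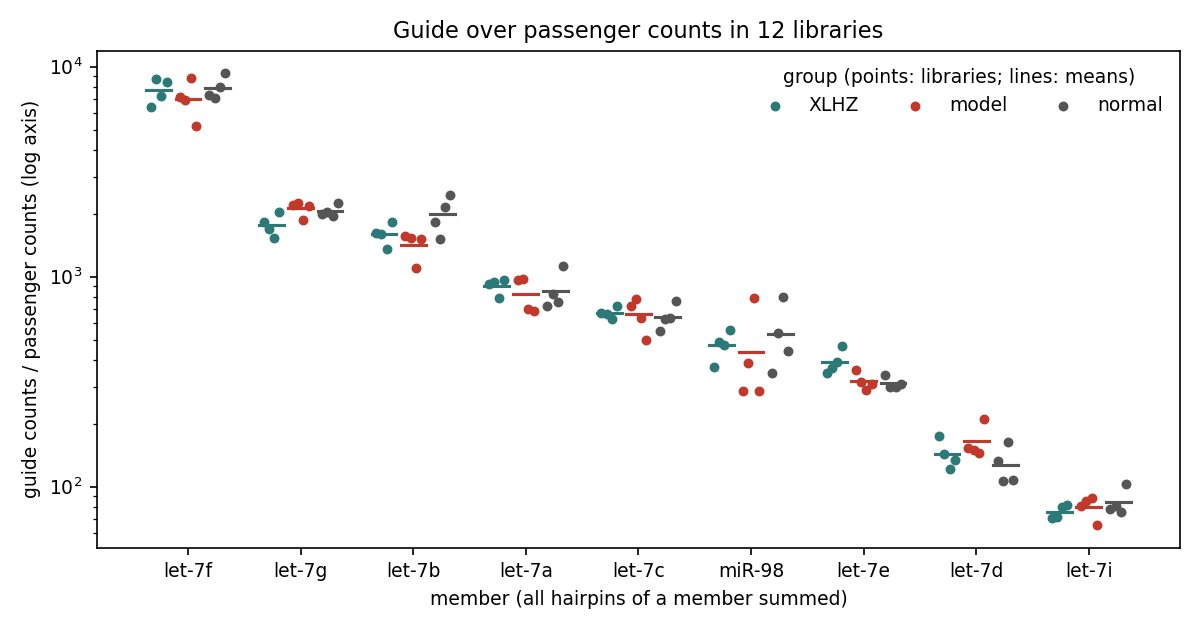
Guide counts over passenger counts of each member on a log axis, all hairpins of a member summed; points are libraries and lines group means, for XLHZ, model and normal. The ratio runs from 65.6 for let-7i to 9302 for let-7f, and the XLHZ points of let-7e lie above its normal points.

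For the passenger arms too, 0 of 11 tested arms passed in any comparison. The shares of all miRNAs passing were 0.249% (XLHZ over model), 0.248% (model over normal) and 1.5% (XLHZ over normal). Let-7e-3p had the clearest separation, and its sequence and that of let-7d-3p are given as the arms described next, from RefSeq.
let-7e-3p: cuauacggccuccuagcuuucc
let-7d-3p: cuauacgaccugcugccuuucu

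Let-7e-3p had 10.5, 11.1, 10.1 and 9.07 CPM in XLHZ libraries, against 12.7, 17.1, 18.1 and 11.8 CPM in model libraries and 12.9, 15.2, 13.9 and 14.9 CPM in normal libraries. The XLHZ libraries were below every model and every normal library, under each of the 4 scalings tried. Among the miRNAs tested for XLHZ over model, it was the 1 miRNA that was lower without overlap (0.249%). These values rest on 107 to 177 counts per library. The log2 fold change was -0.56 for XLHZ over model (SE 0.20, edgeR adjusted p = 0.73) and -0.51 for XLHZ over normal (SE 0.14, edgeR adjusted p = 0.27). Over all settings its adjusted p ran from 0.31 to 0.98 in XLHZ over model and from 0.091 to 0.89 in XLHZ over normal.

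The guide to passenger ratio of let-7e was 347, 368, 393 and 469 in XLHZ libraries, against 358, 314, 290 and 307 in model libraries and 339, 300.0, 299.9 and 308 in normal libraries. Every XLHZ library was above every normal library, with means of 394 ± 53.1 in XLHZ and 312 ± 18.6 in normal (SD, n = 4 each). The XLHZ libraries overlapped with model (317 ± 29.1). Ratios of the -5p to the -3p arm were without overlap, in either direction, for 4.07% of the hairpins with both arms tested in XLHZ over normal.

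Let-7g-3p and let-7d-3p were the other arms of note between groups. Let-7g-3p had 7.54, 7.46, 8.28 and 6.36 CPM in XLHZ libraries, against 5.50, 5.46, 6.21 and 5.92 CPM in model libraries. The XLHZ libraries were all higher, a pattern seen for 0.998% of miRNAs tested, on 50 to 89 counts per library. The log2 fold change of let-7g-3p was 0.34 (SE 0.17, edgeR adjusted p = 0.73). Let-7d-3p had 46.6, 50.3, 51.8 and 31.5 CPM in model libraries, against 56.5, 71.4, 49.1 and 78.9 CPM in normal libraries. Normal library 3 was below model libraries 2 and 3, so these groups overlapped, and the log2 fold change was -0.51 (SE 0.23, edgeR adjusted p = 0.62). Under upper-quartile scaling and library totals the model libraries of let-7d-3p were all below the normal ones. Under library totals the XLHZ libraries were also all above the model ones.

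The passenger strands of the let-7a-1 and let-7c-2 hairpins are listed apart in the files although RefSeq gives them 1 sequence, shown for that reason.
let-7a-1-3p: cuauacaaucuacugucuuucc
let-7c-2-3p: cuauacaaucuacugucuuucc
Their counts were near equal in every library, with let-7c-2-3p holding 47.5% to 52.1% of the pair. The separate values of these arms therefore say nothing of which hairpin a read came from, and the guide to passenger ratios of let-7a and let-7c carry the same limit.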

How the data were processed

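Total RNA from gastric mucosa was made into QIAseq small RNA libraries and sequenced on an Illumina HiSeq instrument, per the labels' protocols. Bowtie and DESeq are named without versions, per the submitters' processing notes. The build, the counting rule and any use of molecular identifiers are not stated in these sources. Deposited were 2 tables of raw counts per mature miRNA, of model with XLHZ libraries (632 miRNAs) and of normal with model libraries (639 miRNAs), per the file headers. The deposited CPM columns matched counts over column totals within 5.0e-05 and served for that check.

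The tables were joined on miRNA names after the model counts were found identical in both for all shared names except miR-20b-3p, which was left out. The miRNAs listed in 1 table alone, 10 and 17, had at most 3 counts and were taken as 0 in the other. Replicate libraries differed by more than sampling noise (lowest chi-square over its degrees of freedom 172). Each comparison was fitted on its 8 libraries by the quasi-likelihood test of edgeR 4.0.16 in R 4.3.3 (TMM factors; filterByExpr, minimum count 10), with Benjamini-Hochberg adjustment over all miRNAs at a threshold of 0.05. Intervals of fold changes have a level of 95%. The procedure was tested on simulated counts. Displayed levels are CPM scaled by TMM over 12 libraries. The spread within groups used log2 of CPM plus 0.5.

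Named miRNAs are the 9 members, their passenger arms, 5 cluster partners, and the 5 miRNAs outside the family that kept the steadiest ratio to its summed count. Muscle, epithelial, endothelial, leukocyte and erythroid marker lists gave summed shares. Of these, the erythroid share was at most 0.0188%, the leukocyte share at most 0.706%, the endothelial share at most 2.88% and the striated muscle share at most 1.99% in any library, and the squamous, gastric and endocrine lists are given with the results. The members and lists were chosen with earlier results of these data known. Alternatives were RLE, upper-quartile and library-total scaling, library sizes from miRNAs outside the family, other count filters, DESeq2 1.42.0, limma-trend (limma 3.58.1), 1 fit of all 12 libraries, the replicate number as a block, and libraries left out. Whether groups overlapped under each scaling was looked up after the data were seen.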

Additional observations from a re-analysis of the deposited data

Results flagged for a closer look

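A library was singled out where its gap to the nearest of the other 3 exceeded Dixon's 95% critical value, which chance gives in about 1 of 20 groups, and 7 of 84 groups tested had such a library. The level of let-7c in XLHZ library 3 was 44464 CPM, with the other XLHZ libraries at 41071 to 41574 CPM. The within-family share of let-7i in XLHZ library 1 was 5.08%, against 5.98% to 6.07% in the others. In model library 2, let-7b stood at 11013 CPM and at 5.35% of the family, with 13794 to 14360 CPM and 7.15% to 7.31% in the other model libraries. The guide to passenger ratio of let-7b was 1097 in model library 3, against 1511 to 1561 in the others. That of let-7d was 210 (209.8) in model library 4, against 145 to 153 in the others. The level of let-7f in normal library 3 was 53476 CPM, with 57840 to 58588 CPM in the other normal libraries.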

How the results depend on the processing

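No member passed under any setting. Of all miRNAs, 1 passed for XLHZ over model, and 0 without model libraries 2 and 3 (0 to 1 with single libraries left out, 0 without XLHZ library 1 or 4 or any model library). For model over normal 1 passed, against 2 by upper quartiles, library totals or a minimum of 50 counts in 4 libraries, 3 without a filter, 4 in the fit of 12 libraries and 7 in DESeq2 (1 to 4 with single libraries left out, 4 without model library 4). For XLHZ over normal 6 passed, against 2 in the fit of 12 libraries (4 to 7). The family share without miR-143-3p in the denominator was 24.3% in XLHZ, 23.8% in model and 25.5% in normal libraries, and without the miR-143 and miR-145 arms 25.02%, 24.9% and 26.2%.

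The labels state no pairing of libraries. Same-number correlations of deviations from group means ran from -0.439 to 0.519. With 4 libraries per group, they cannot show whether the replicate numbers pair the libraries. With the replicate block 1, 1 and 5 miRNAs passed in the 3 comparisons.

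Small fold changes (log2) changed sign in 34 values over other settings, where 254 kept it, and in 27 with 1 library left out, where 189 kept it; the cause was not tested. With library totals the median of all miRNAs stood at 0.167 (XLHZ over model) and -0.122 (model over normal), against 0.0057 and -0.0072 with TMM. For XLHZ over model, RLE and DESeq2 gave -0.012 (let-7f) and -0.0021 (miR-98), upper quartiles 0.0052 (let-7d), library totals 0.15 (let-7a), 0.063 (let-7c), 0.17 (let-7d) and 0.05 (let-7i), and no filter 0.024 (let-7a) and 0.03 (let-7d). Without model libraries 2 and 3 they were -0.08 (let-7b), 0.019 (let-7d), -0.03 (let-7f) and -0.035 (miR-98). Leaving out libraries gave -0.074 to 0.019 for let-7a, -0.08 to 0.076 for let-7b, -0.048 to 0.019 for let-7d, -0.049 to 0.034 for let-7f and -0.048 to 0.073 for miR-98.

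For model over normal, RLE and DESeq2 gave 0.0051 (let-7c) and 0.019 (miR-98), upper quartiles 0.024 and 0.045, library sizes from outside the family 0.016 and 0.033, and library totals -0.062 (let-7e) and -0.12 (let-7i). Without model libraries 2 and 3 they were -0.084 (let-7e), -0.092 (let-7i) and 0.05 (miR-98). Leaving out libraries, these 2 included, gave -0.097 to 0.045 for let-7c, -0.084 to 0.19 for let-7e, -0.085 to 0.0066 for let-7f, -0.092 to 0.11 for let-7i and -0.052 to 0.077 for miR-98. For XLHZ over normal, upper quartiles gave 0.012 (let-7f) and 0.045 (let-7g), library totals 0.022 (let-7g), and for miR-98 no filter gave -0.0068, limma-trend -0.00015, the replicate block -0.00013 and single libraries left out -0.027 to 0.052.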
